A study of Arabidopsis thaliana with 9 samples.

Results

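The chloroplast genome of Arabidopsis thaliana carries genes for parts of the photosynthetic apparatus and for the machinery that expresses them. The 59 plastid-encoded genes described here are those whose probe set the array annotation pairs with exactly 1 gene of the plastid genome, 59 of 10343 probe sets tested. The rule reads the locus and not a measured value, though earlier results of these data were known when it was set, and the table it was applied to may itself be a selection. The reference table lists 78 distinct plastid protein-coding symbols, so 19 had no such probe set and were not analysed here. A further 6 probe sets that the annotation pairs with several genes were left out.

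The samples were whole wild-type seedlings, taken untreated when 4 days old (0 d) or kept from that age on MS medium with 2,4-D at 2.26 µM, a synthetic auxin, and kinetin at 0.46 µM, a cytokinin, for 2 d or 8 d. Such a mixture is used to induce callus, and the study set it beside another inducer that was not analysed here. Each time point had 3 Affymetrix arrays. Separate cultures are not stated, so p-values measure the spread between arrays, which may be technical. Seedling age and treatment time increased together and cannot be told apart.

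Plastid genes are transcribed by 2 kinds of RNA polymerase. A bacterial-type enzyme has its core subunits encoded by the plastid rpo genes and its sigma factors by the nucleus, and it serves most photosynthesis genes, while a phage-type enzyme encoded in the nucleus serves, among others, the operon that holds rpoB. Plastid genes mostly lie in operons read as long transcripts, and photosynthetic complexes mix plastid-encoded and nuclear-encoded subunits. The members fall into 28 photosynthesis genes (psa, psb, pet, atp and rbc), 7 ndh genes, 17 genes of the genetic system (rps, rpl and rpo) and 7 others.

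Values are probe set signals on a linear scale, and a change is a difference in mean log2 signal with its standard error (SE) from limma. A gene is said to have risen or fallen where its Benjamini-Hochberg adjusted p was under 0.05 and its log2 change at least 1 in size, a factor of 2. Array medians ran from 445 to 546 and upper quartiles from 1060 to 1101, and no pair of replicates was identical. In an ordinary F test over the time points, made on each probe set alone and without limma, 99.8% of all probe sets and all 59 members had an unadjusted p under 0.05. The table therefore looks to have been chosen on these arrays, and the adjusted p-values are too small. Over all probe sets the median log2 change stood at 0.19 at 2 d and 0.40 at 8 d against 0 d, and 0.26 at 8 d against 2 d. RCA (Rubisco activase), the only green tissue marker measured of the 4 on its list, averaged 17009 ± 1155, 15900 ± 711 and 10018 ± 813 at 0 d, 2 d and 8 d (SD, n = 3 each). Of the root markers 2 of 4 were measured, PYK10 at -0.06 and -0.55 and the root hair gene EXPA7 at -2.44 and -2.53, at 2 d and 8 d against 0 d. Of the stomatal lineage markers 2 of 3 were measured, FMA at 0.38 and -1.01 and STOMAGEN at -0.55 and -4.40. None of the 3 meristem markers was measured. Measured here means found among the probe sets that the annotation pairs with exactly 1 gene. A further 4608 probe sets had no gene name and 214 had several genes, so unmeasured list genes may lie among them. The part of tissue makeup in the changes was not tested. In whole seedlings, fewer green cells, fewer plastids or genome copies per cell and less RNA per plastid cannot be told apart.

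By 8 d the signal of all 59 measured genes lay lower than at 0 d, in every array of 8 d against every array of 0 d, a separation found for 36.7% of all probe sets. With the fold threshold, 43 of the 59 fell at 8 d, beside 18.1% of all probe sets, and none rose, beside 25.4%. At an adjusted p under 0.05 with no fold threshold all 59 were lower, beside 35.8%. The median change was -1.29 and the range from -2.47 in ndhH to -0.42 in psbJ. At 2 d against 0 d only rpl20 fell, 1 of 59 beside 5.2% of all probe sets, and none rose, beside 9.75%. The median was -0.38, and in 27 of the 59 no 2 d array reached the 0 d range from below, beside 27.1%. Between 2 d and 8 d, 31 of the 59 fell, beside 14.7% of all probe sets, and none rose, beside 7.36%. The median was -1.03, and 58 of the 59 were lower with no fold threshold, beside 29.9%, and again 58 had 8 d arrays all below those of 2 d, beside 30.6%. The 59 together gave 2.30 to 2.58% of the summed signal of the tested probe sets at 0 d, 1.95 to 2.24% at 2 d, and 1.23 to 1.26% at 8 d, with no overlap between time points.

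Some group medians differed at 2 d, while the values of single genes overlapped between groups. At 2 d against 0 d the changes ran from -0.75 to 0.44 for photosynthesis genes and from -0.52 to 0.30 for ndh genes. They ran from -1.08 to -0.048 for the genetic system and from -0.94 to -0.28 for the other genes. At 2 d against 0 d the median change was -0.10 for photosynthesis genes, -0.13 for ndh genes, -0.57 for the genetic system and -0.46 for the other genes. At 8 d against 0 d the medians lay close together, at -1.25, -1.25, -1.31 and -1.37 in the same order. At 8 d against 2 d they were -1.14, -1.15, -0.73 and -0.91. Without a fold threshold, 15 of 17 genetic system genes, 6 of 7 others, 2 of 7 ndh genes and 7 of 28 photosynthesis genes were lower at 2 d at an adjusted p under 0.05, beside 23.4% of all probe sets. By the same rule 1 of the 59, psbK, was higher at 2 d, beside 40.1% of all probe sets. Since members share polycistronic RNAs and the lists were drawn with results known, the difference between groups is given as a description.

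**Figure D1:**
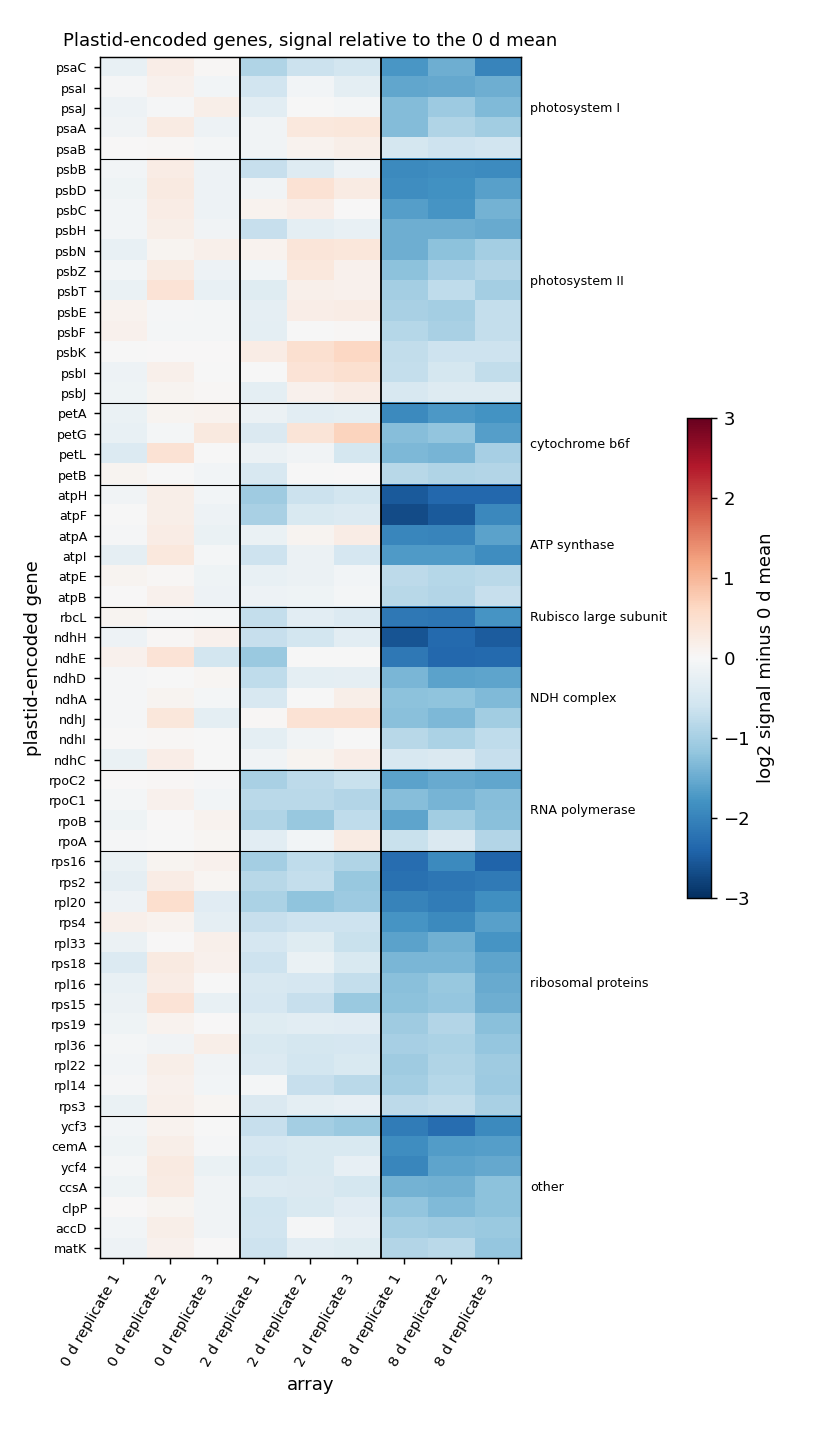
Log2 signal of each of the 59 plastid-encoded genes on the 9 arrays (columns) minus its own mean at 0 d, in colour, with genes grouped by role and sorted by their change at 8 d. Blue fills the 8 d columns for all genes, whereas at 2 d the RNA polymerase and ribosomal protein rows are mostly blue and most photosystem II rows are near white or pale red, with psbB and psbH pale blue.

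The arrays of each time point were not equally close to each other. Relative to each gene's 0 d mean, the photosynthesis median was -0.080, 0.14 and -0.066 on the 3 arrays of 0 d, -0.28, -0.012 and 0.016 at 2 d, and -1.33, -1.20 and -1.18 at 8 d. For the genetic system the medians were -0.12, 0.12 and 0.013 at 0 d, -0.51, -0.63 and -0.67 at 2 d, and -1.27, -1.17 and -1.46 at 8 d. The genetic system thus lay below photosynthesis on each 2 d array, by 0.23 on replicate 1 and by 0.62 and 0.69 on replicates 2 and 3. Replicate 1 of 2 d stood apart and had the lowest limma array weight of the 9, at 0.27. Without that array the 2 d medians were 0.0064 for photosynthesis, -0.015 for ndh, -0.62 for the genetic system and -0.40 for the others, and 0, 0, 1 and 1 genes fell in these groups in that order, 2 of 59 beside 5.12% of all probe sets.

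The fall of photosystem I genes at 8 d took in 4 of the 5 measured, beside 18.1% of all probe sets. psaA and psaB encode the large reaction centre proteins that bind the P700 chlorophylls. psaB had signals of 13277, 13578 and 12674 at 0 d, 12285, 14090 and 14772 at 2 d, and 9183, 8576 and 8918 at 8 d. Its 2 d arrays overlapped with those of 0 d and its 8 d arrays were lowest, with changes of 0.054 (SE 0.10) at 2 d and -0.57 (SE 0.10) at 8 d against 0 d, short of the fold threshold. For psaA the signals were 3305, 4236 and 3221 at 0 d, 3312, 4433 and 4502 at 2 d, and 1442, 1889 and 1720 at 8 d. At 8 d psaA fell by 1.09 (SE 0.16; limma, adjusted p = 0.00012), a call that ended after quantile normalization (-0.91), with array weights (just under a log2 change of 1), without 0 d replicate 2 (-0.96) and without 8 d replicate 1 (-0.98).

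psaC encodes the stromal subunit that carries the terminal iron-sulfur clusters. Its signals were 1009, 1360 and 1203 at 0 d, 630, 755 and 801 at 2 d, and 349, 429 and 301 at 8 d. Each time point lay below the one before with no overlap, and psaC was at -0.71 (SE 0.16) at 2 d and fell by 1.73 at 8 d (limma, adjusted p = 4.4e-06). The fall of psaC between 2 d and 8 d, 1.03, was short of the threshold under 7 alternatives, with the smallest change, -0.90, without 8 d replicate 3. psaI and psaJ encode small membrane subunits. psaI had 3720, 4154 and 3597 at 0 d, 2548, 3623 and 3115 at 2 d, and 1292, 1323 and 1376 at 8 d, and psaJ had 5969, 6475 and 7387 at 0 d, 5248, 6538 and 6373 at 2 d, and 2656, 3098 and 2641 at 8 d. At 8 d both fell, psaI at -1.52 (SE 0.13) and psaJ at -1.24 (SE 0.13), and psaJ was at -0.92 and not called after quantile normalization. At 2 d they were at -0.32 and -0.13.

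Photosystem II had 12 measured genes, and 6 of them fell at 8 d against 0 d, beside 18.1% of all probe sets. None fell or rose at 2 d, when their median was 0.076, beside 0.19 for all probe sets. At 2 d 8 of the 12 lay above 0, beside 6282 of all 10343 probe sets. psbD and psbC encode the D2 reaction centre protein and the CP43 core antenna. psbD had signals of 1169, 1537 and 1151 at 0 d, 1180, 1708 and 1505 at 2 d, and 349, 361 and 411 at 8 d, and psbC had 3083, 3818 and 2939 at 0 d, 3506, 3740 and 3295 at 2 d, and 1030, 963 and 1220 at 8 d. In both genes the 2 d arrays overlapped with those of 0 d, while the 8 d arrays were far below. Between 2 d and 8 d psbD fell by 1.96 (SE 0.16; limma, adjusted p = 7e-06), and psbC fell by 1.72 (SE 0.13; adjusted p = 5.2e-06). psbB, the gene of the CP47 core antenna, had 1992, 2444 and 1887 at 0 d, 1289, 1593 and 1896 at 2 d, and 556, 578 and 563 at 8 d. It was at -0.41 (SE 0.15) at 2 d and fell by 1.89 (SE 0.15) at 8 d, the lowest change of the photosystem II genes.

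The other photosystem II genes covered a wide range of changes. psbF encodes a subunit of cytochrome b559, with signals of 10027, 8858 and 8884 at 0 d, 7560, 9155 and 9514 at 2 d, and 5095, 4686 and 5606 at 8 d, and was at -0.85 (SE 0.12) at 8 d, short of the threshold. For psbJ, a small subunit, the signals were 3083, 3550 and 3463 at 0 d, 2746, 3687 and 3939 at 2 d, and 2407, 2576 and 2556 at 8 d. Its change at 8 d, -0.42 (SE 0.14), was the smallest of the 59, although no 8 d array reached the 0 d range. psbN, known from tobacco as an assembly factor of photosystem II and not a subunit, had 418, 520 and 548 at 0 d, 533, 632 and 622 at 2 d, and 177, 211 and 241 at 8 d. It fell by 1.51 (SE 0.15) between 2 d and 8 d. psbK, another small subunit, had 7284, 7479 and 7389 at 0 d, 8566, 10305 and 11335 at 2 d, and 4447, 4766 and 4795 at 8 d. All 3 arrays of 2 d were above those of 0 d, a change of 0.44 (SE 0.11) with an adjusted p of 0.0075 in limma that did not reach the fold threshold, and its 8 d signals were 2.14-fold lower than those of 2 d (-0.83 and not called after quantile normalization). The neighbouring psbI was at 0.29 at 2 d (adjusted p = 0.098) and -0.95 between 2 d and 8 d. The remaining members psbE, psbH, psbT and psbZ were at -0.91, -1.48, -0.93 and -1.04 at 8 d against 0 d, and of these psbH and psbZ were called. The call of psbZ ended after quantile normalization (-0.89), with arrays centred on the hybridisation controls (-0.96), without 0 d replicate 2 (-0.92) and without 8 d replicate 1 (-0.94), and it is 1 of the 6 counted above.

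The cytochrome b6f complex passes electrons from photosystem II to photosystem I. Of its 4 measured genes 3 fell at 8 d, beside 18.1% of all probe sets. petA, for cytochrome f, had signals of 6341, 7688 and 7742 at 0 d, 6444, 5843 and 5871 at 2 d, and 1932, 2202 and 2076 at 8 d. It fell by 1.81 (SE 0.11; limma, adjusted p = 3.7e-07) at 8 d, with -0.26 (SE 0.11) at 2 d. petB, for cytochrome b6, had 12664, 11931 and 11244 at 0 d, 8548, 11775 and 12066 at 2 d, and 6735, 6395 and 6461 at 8 d, and at -0.87 (SE 0.14) it was short of the threshold at 8 d. petG and petL encode small subunits. petG had 280, 310 and 397 at 0 d, 243, 425 and 514 at 2 d, and 135, 144 and 104 at 8 d, with a wide spread at 2 d, and fell by 1.36 (SE 0.26) at 8 d. petL had 671, 1198 and 879 at 0 d, 782, 833 and 615 at 2 d, and 348, 336 and 446 at 8 d and fell by 1.25 (SE 0.21).

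ATP synthase genes held the largest falls of the photosynthesis group. atpF, atpH and atpI encode subunits of the membrane-bound part, and atpA, atpB and atpE those of the catalytic part. atpH had signals of 2366, 2881 and 2426 at 0 d, 1217, 1634 and 1734 at 2 d, and 445, 500 and 497 at 8 d. The 3 time points did not overlap, and atpH fell by 2.41 (SE 0.15; limma, adjusted p = 3.3e-07) at 8 d, after -0.75 (SE 0.15) at 2 d. atpF had 2249, 2534 and 2029 at 0 d, 1158, 1637 and 1688 at 2 d, and 350, 397 and 596 at 8 d and fell by 2.38 (SE 0.21). atpA, with 2681, 3196 and 2392 at 0 d, 2392, 2902 and 3209 at 2 d, and 702, 699 and 901 at 8 d, had overlapping arrays at 0 d and 2 d and fell by 1.89 (SE 0.16) between 2 d and 8 d. For atpI, with 361, 544 and 416 at 0 d, 284, 382 and 307 at 2 d, and 133, 133 and 119 at 8 d, the fall at 8 d was 1.76 (SE 0.16). atpB had 18199, 19633 and 16164 at 0 d, 16037, 16290 and 17282 at 2 d, and 10061, 9816 and 11089 at 8 d, and at -0.80 (SE 0.11) neither it nor its neighbour atpE at -0.82 (SE 0.10) passed the fold threshold. rbcL encodes the large subunit of Rubisco, the carbon-fixing enzyme. Its signals were 2473, 2293 and 2240 at 0 d, 1417, 1888 and 1762 at 2 d, and 524, 516 and 687 at 8 d. rbcL was at -0.48 (SE 0.14) at 2 d and fell by 2.03 (SE 0.14; limma, adjusted p = 8e-07) at 8 d.

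**Figure D2:**
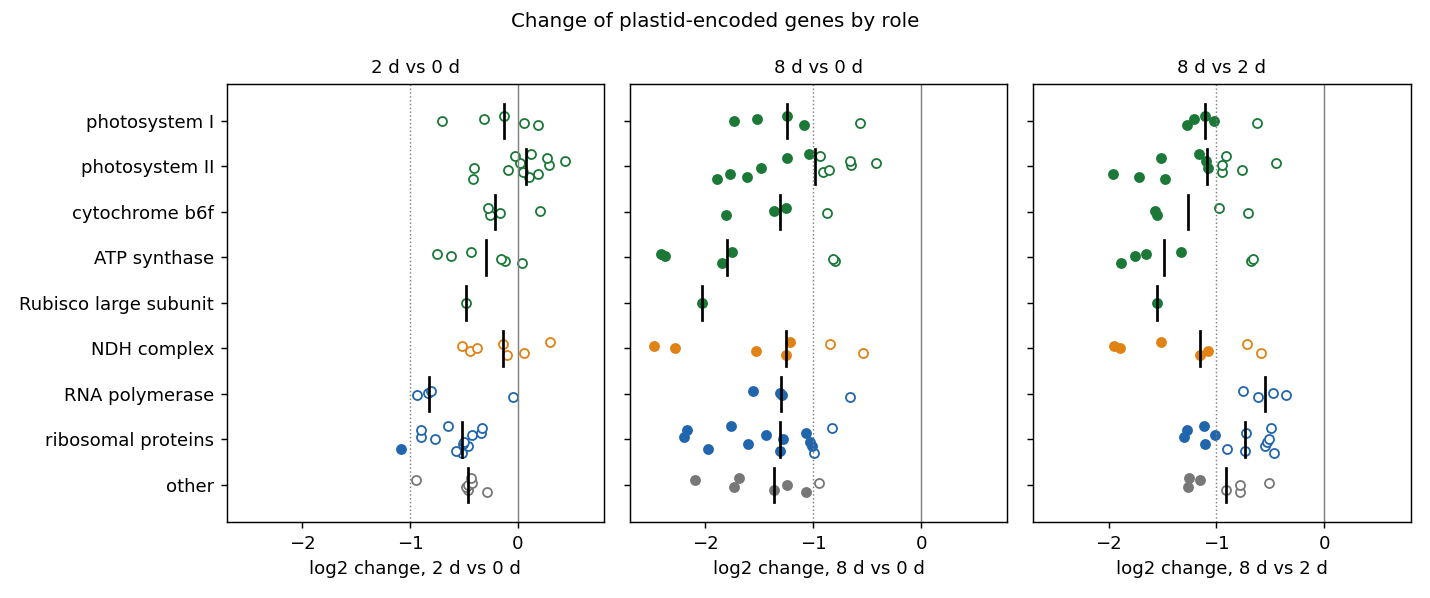
Log2 change of each plastid-encoded gene (circles) by role (rows) in the 3 comparisons, with the median of each role as a black bar, filled circles for called genes and a dotted line at the fold threshold of -1. At 2 d only rpl20 is filled and the photosystem II median lies at 0.076, while the RNA polymerase median lies at -0.82.

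The ndh genes encode subunits of a complex that feeds electrons back to the plastoquinone pool in cyclic flow. Of the 7 measured, 5 fell at 8 d against 0 d, beside 18.1% of all probe sets. The same 5 fell between 2 d and 8 d, beside 14.7%. ndhH, of the stroma-facing arm, had signals of 1336, 1526 and 1618 at 0 d, 918, 1018 and 1197 at 2 d, and 247, 296 and 265 at 8 d. It fell by 2.47 (SE 0.13; limma, adjusted p = 1.6e-07), the largest fall of the 59, with -0.52 (SE 0.13) at 2 d. ndhE, a membrane subunit, had 1066, 1314 and 675 at 0 d, 453, 975 and 969 at 2 d, and 221, 191 and 196 at 8 d and fell by 2.28 (SE 0.31). ndhE at 2 d was uneven, with replicate 1 below all 0 d arrays and the other arrays within their range. ndhD, also of the membrane arm, had 3306, 3355 and 3532 at 0 d, 1992, 2785 and 2801 at 2 d, and 1305, 1113 and 1128 at 8 d. It fell by 1.53 (SE 0.14) at 8 d, and its fall between 2 d and 8 d, 1.08, was just short of the threshold without 2 d replicate 3.

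ndhJ, of the stroma-facing arm, had 1179, 1533 and 987 at 0 d, 1247, 1627 and 1627 at 2 d, and 508, 477 and 591 at 8 d. It was at 0.30 (SE 0.17) at 2 d (adjusted p = 0.16) and fell by 1.51 (SE 0.17) from 2 d to 8 d. ndhI had 14284, 14818 and 14286 at 0 d, 11758, 13475 and 14436 at 2 d, and 8148, 7505 and 8506 at 8 d, and ndhC had 4347, 5799 and 5008 at 0 d, 4645, 5335 and 5718 at 2 d, and 3570, 3743 and 3116 at 8 d. Their changes at 8 d, -0.85 (SE 0.11) and -0.53 (SE 0.13), were short of the threshold although no 8 d array reached the 0 d range. ndhA was at -0.10 at 2 d and fell by 1.25 at 8 d (-0.91 after quantile normalization, not called).

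At 2 d, 15 of the 17 genetic system genes were lower without a fold threshold, beside 23.4% of all probe sets. The exceptions were rpoA and rps18. With the fold threshold 1 fell, beside 5.2%. Of the 4 rpo genes, which encode the core of the bacterial-type polymerase, 3 fell at 8 d, beside 18.1% of all probe sets. None fell between 2 d and 8 d, beside 14.7%, and 4 genes are too few to set that apart from the share. For that interval 3 of the 4 were lower at an adjusted p under 0.05 with no fold threshold, beside 29.9% of all probe sets. The remaining gene, rpoB, was at -0.35 (SE 0.15; limma, adjusted p = 0.053). rpoC2 had signals of 524, 533 and 505 at 0 d, 267, 304 and 327 at 2 d, and 170, 182 and 178 at 8 d. rpoC1 had 1699, 1940 and 1682 at 0 d, 1007, 1004 and 963 at 2 d, and 734, 674 and 732 at 8 d. In both genes the 3 time points did not overlap, with -0.80 (SE 0.10) and -0.84 (SE 0.10) at 2 d (adjusted p = 0.00014 and 8.3e-05) and -1.56 (SE 0.10) and -1.31 (SE 0.10) at 8 d, where both fell. rpoB had 94.0, 103 and 111 at 0 d, 54.9, 46.5 and 59.8 at 2 d, and 34.3, 49.5 and 43.1 at 8 d, signals so low that its fold is imprecise. It was at -0.94 (SE 0.15) at 2 d and fell by 1.29 at 8 d, but was at -0.65 and not called after adding 64 to each signal. rpoA, the alpha subunit gene, lies in a ribosomal protein cluster and had 5432, 5526 and 5847 at 0 d, 4506, 5303 and 6654 at 2 d, and 3527, 4113 and 3047 at 8 d. Its 2 d arrays spanned the 0 d range, at -0.048 (SE 0.15) with an adjusted p of 0.8, and at 8 d it was at -0.66 (SE 0.15), short of the threshold.

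All 13 measured ribosomal protein genes had a change below 0 at 2 d, beside 4061 of all 10343 probe sets, with a median of -0.52. By 8 d 11 of the 13 fell, beside 18.1% of all probe sets. rpl20, of the large ribosomal subunit, had signals of 1115, 1751 and 970 at 0 d, 646, 532 and 584 at 2 d, and 308, 290 and 346 at 8 d. It fell by 1.08 (SE 0.19; limma, adjusted p = 0.001) at 2 d, though the change was -0.88 when arrays were centred on the hybridisation controls and -0.83 without 0 d replicate 2, neither of them called. By 8 d rpl20 was at -1.98. rps16, of the small subunit, had 455, 551 and 567 at 0 d, 256, 308 and 281 at 2 d, and 108, 140 and 98.0 at 8 d. rps2, also of the small subunit, had 1274, 1796 and 1588 at 0 d, 858, 937 and 701 at 2 d, and 326, 344 and 356 at 8 d. Both were close to the threshold at 2 d, at -0.90 (SE 0.15) and -0.90 (SE 0.15), and both fell at 8 d, rps16 4.58-fold and rps2 4.5-fold. The fall of rps16 between 2 d and 8 d, 2.46-fold, was, as a log2 change, -0.95 and not called after adding 64 to each signal.

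rps4 had 8003, 7694 and 5966 at 0 d, 4425, 4634 and 4675 at 2 d, and 2097, 1916 and 2328 at 8 d, with no overlap between time points, and fell by 1.77 (SE 0.13) at 8 d. Its change from 2 d to 8 d, -1.12, was just short of the threshold after quantile normalization. rpl22 had 8412, 9999 and 8291 at 0 d, 6714, 6072 and 6510 at 2 d, and 4236, 4744 and 4232 at 8 d and fell by 1.01 (SE 0.11), a call at the edge of the threshold that ended under 7 alternatives, with -0.61 after quantile normalization. rps3 had 5291, 6786 and 6350 at 0 d, 4499, 4954 and 5128 at 2 d, and 3572, 3667 and 3122 at 8 d and was at -0.83 (SE 0.12), the smallest change of the ribosomal protein genes. The remaining 7, which were rpl14, rpl16, rpl33, rpl36, rps15, rps18 and rps19, lay between -1.61 and -0.99 at 8 d, and rpl14 alone of them was not called. The call of rpl36 ended under 6 alternatives and that of rps19 under 4, with -0.77 and -0.78 after quantile normalization.

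The 7 other genes encode proteins of assembly, lipid synthesis, proteolysis and RNA splicing, and a protein of the inner envelope. Of the 7, 6 fell at 8 d, beside 18.1% of all probe sets. ycf3 and ycf4 encode assembly factors of photosystem I. ycf3 had signals of 1699, 1947 and 1799 at 0 d, 1127, 888 and 837 at 2 d, and 423, 373 and 485 at 8 d. It was at -0.94 (SE 0.14) at 2 d (limma, adjusted p = 0.00034) and fell by 2.09 at 8 d. ycf4 had 4717, 5845 and 4223 at 0 d, 3230, 3548 and 4109 at 2 d, and 1260, 1640 and 1681 at 8 d and fell by 1.69 (SE 0.16). cemA, for a protein of the inner envelope, had 6625, 8217 and 7146 at 0 d, 5130, 5307 and 5311 at 2 d, and 2008, 2272 and 2312 at 8 d and fell by 1.74 (SE 0.11). ccsA, for a factor that attaches haem to c-type cytochromes, had 5086, 6654 and 5168 at 0 d, 4185, 4128 and 3901 at 2 d, and 2089, 2053 and 2373 at 8 d and fell by 1.37 (SE 0.12). In 6 of the 7 other genes, all but accD, no 2 d array reached the 0 d range, beside 27.1% of all probe sets. clpP, the catalytic subunit of the Clp protease, had 9176, 9595 and 8495 at 0 d, 6041, 6665 and 7147 at 2 d, and 4018, 3624 and 3870 at 8 d. It fell by 1.24 at 8 d (-0.88 after quantile normalization, not called). matK, an intron maturase, had 5301, 6460 and 5883 at 0 d, 3825, 4720 and 4582 at 2 d, and 3206, 3359 and 2633 at 8 d and was at -0.94 (SE 0.13), short of the threshold. accD, for a subunit of the acetyl-CoA carboxylase of fatty acid synthesis, fell by 1.07, but was at -0.99 with arrays centred on the hybridisation controls and at -0.97 without 0 d replicate 2, not called in either.

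Genes that lie next to each other in the plastid genome differed less in their estimated changes than other pairs did. Neighbours are genes next to each other in the order of protein-coding genes, whatever their strand and any RNA genes between them. The median absolute difference in log2 change over the 48 pairs of neighbours was 0.24 at 2 d and 0.39 at 8 d against 0 d. Over the 1663 other pairs it was 0.37 and 0.51. Some neighbours share an RNA or a role, so the pairs are not independent and no test was made. The run psbD, psbC and psbZ was at 0.18, 0.11 and 0.12 at 2 d and at -1.96, -1.72 and -1.16 between 2 d and 8 d. Other neighbours lay far apart at 2 d, with a difference of 1.33 between rps16 and psbK, 1.13 between psaA and ycf3, and 0.94 between rps4 and ndhJ. In the run of rpoB, rpoC1, rpoC2 and rps2 the changes were -0.94, -0.84, -0.80 and -0.90 at 2 d, and -0.35, -0.48, -0.76 and -1.27 between 2 d and 8 d. The estimates of psbD, psbC, psbZ and rps2 were larger in size for the later interval, and those of rpoB, rpoC1 and rpoC2 for the earlier one, a difference within the SE for rpoC2.

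**Figure D3:**
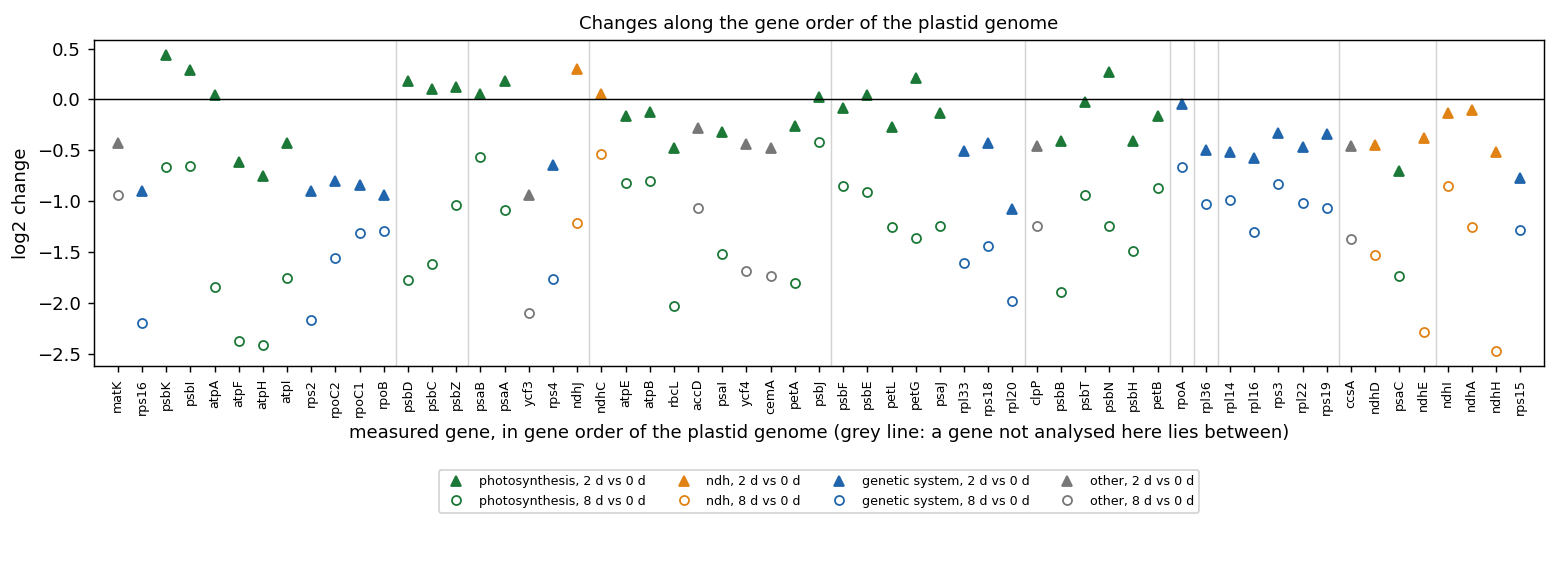
Log2 change at 2 d (triangles) and 8 d (open circles) against 0 d for the 59 measured genes, placed in their order along the plastid genome and coloured by group. 14 triangles lie above 0, among them psbK, psbD, psaA and ndhJ, whereas the runs from rps2 to rpoB and from rpl36 to rps19 lie below.

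Genes with a higher signal at 0 d tended to fall less at 8 d. Across the 59 genes Spearman's rho between the log2 0 d signal and the change at 8 d against 0 d was 0.50, and at 2 d against 0 d it was 0.26. These are descriptions across genes that share arrays and RNAs, and the 0 d signal enters both values. The 8 genes with a 0 d signal of at least 8000 had a median change of -0.85 at 8 d and 2 calls, the 32 from 2000 to 8000 had -1.34 and 23 calls, and the 19 under 2000 had -1.56 and 18 calls. The part of signal strength in the changes was not tested. At 2 d the order of the groups was the same within the classes that held several of each. From 2000 to 8000, the median was -0.50 for 9 genetic system genes and -0.052 for 16 photosynthesis genes, and under 2000 it was -0.90 for 7 and -0.027 for 7.

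**Figure D4:**
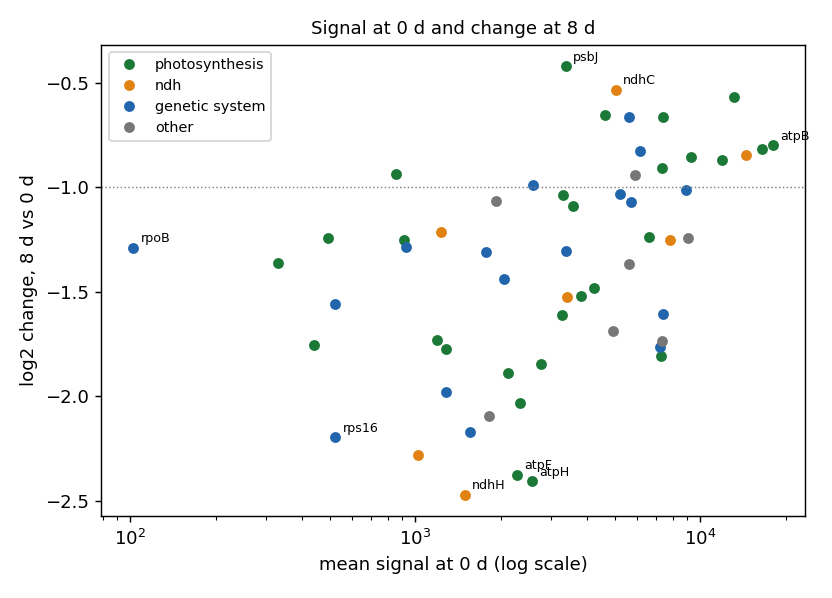
Mean signal at 0 d (horizontal axis, log scale) and log2 change at 8 d against 0 d (vertical axis) for the 59 plastid-encoded genes, coloured by group, with a dotted line at the fold threshold of -1. The brightest probe set, that of atpB at -0.80, lies above the line, and the largest falls, from ndhH at -2.47 to ndhE at -2.28, come from probe sets with 0 d means from 1018 to 2558.

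Nuclear genes for the same complexes were set beside them from lists written from general knowledge of the loci. The table looks to have been chosen on these arrays, so the measured genes of a list may be those that changed. Of 33 nuclear genes for plastid ribosomal proteins 9 were measured, and all 9 fell at 8 d, beside 18.1% of all probe sets. Their median was -2.51, against -1.31 for the 13 plastid-encoded ones, a difference that was not tested. The change ranged from -1.87 in PRPL3 to -2.83 in PRPL19B. PRPL19B had signals of 5234, 4685 and 5653 at 0 d, 2426, 2500 and 2389 at 2 d, and 691, 704 and 786 at 8 d, with no overlap between time points, and was the only one of the 9 to fall at 2 d, at -1.09 (SE 0.10) (limma, adjusted p = 2.8e-05), while the median of the 9 at 2 d was -0.67. All 9 fell between 2 d and 8 d, with a median of -1.73, beside 14.7% of all probe sets. Of the 13 plastid-encoded ones 5 did, with a median of -0.73.

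Of 14 nuclear genes for the NDH complex 3 were measured, and all 3 fell at 8 d, beside 18.1% of all probe sets. NDHL was at -2.61, NDHN at -2.41 and NDHS at -2.05. At 2 d they were at 0.0015, 0.38 and -0.39 and none was called. Of 41 nuclear photosystem and light-harvesting genes 7 were measured, with medians of -0.18 at 2 d and -1.43 at 8 d against 0 d. Of the 7, 6 fell at 8 d, beside 18.1% of all probe sets. LHCB4.3, a minor antenna gene, had signals of 2060, 2298 and 2418 at 0 d, 396, 337 and 389 at 2 d, and 119, 144 and 111 at 8 d, and of the 7 only LHCB4.3 fell at 2 d, at -2.60 (SE 0.13). ATPC1, for the gamma subunit of ATP synthase, was at -0.0082 at 2 d and fell by 1.03 at 8 d. The 6 sigma factors, 2 nuclear-encoded phage-type polymerases and 13 polymerase-associated proteins of the lists were not among the named probe sets, and were not analysed here.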

How the data were processed

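The deposited values are MAS5 signals, per the submitters' processing notes, and each is an intensity on a linear scale. Neither the scaling target nor the rule for keeping probe sets is stated. Per the labels' protocols, biotinylated cRNA was prepared with Affymetrix's standard method, although Cy3 is also named as the label. That method usually primes on poly(A) tails, which most plastid RNAs lack in stable form, and the effect of this was not tested. The log2 signals of 10343 probe sets, without 23 controls, were fitted in limma 3.58.1 (R 4.3.3) with 1 mean per time point over 9 arrays. Two-sided p-values were adjusted over the whole table (Benjamini-Hochberg). The fit was checked on simulated data.

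Titles gave groups and replicate numbers. Deviations of same-numbered arrays correlated at -0.091 to 0.23 and those of differently numbered ones at -0.27 to 0.23, so no pairing was used. For 8 d and 2 d the same-numbered values were mixed, at 0.23, -0.091 and 0.17 for replicates 1, 2 and 3. Members were found by locus through the array annotation and TAIR10.1, which supplied names and gene order only. Every member may be named. Per-array values were printed, within each role, for the brightest member, those with the highest and lowest change at 8 d, and called members up to 4, and psbK was added after its values were seen. Members and lists were chosen with earlier results of these data known. Arrays have no read depth, and their number limits precision.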

Additional observations from a re-analysis of the deposited data

How the results depend on the processing

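At 2 d against 0 d 1 of the 59 genes fell, and 3 did after quantile normalization, 6 with arrays centred on the median, 0 with arrays centred on hybridisation controls and 3 with array weights, beside 6.96, 7.2, 3.68 and 5.18% of all probe sets. At 8 d against 0 d the 43 became 36, 53, 38 and 40 under the same alternatives, beside 21.2, 24.1, 16.4 and 18.3%. For the genetic system the counts at 2 d were 1 as reported, then 3, 5, 0 and 2. With each array left out in turn, both counts at 2 d ran from 0 to 2. Without a fold threshold 30 of the 59 were lower and 1 was higher at 2 d, beside 23.4 and 40.1% of all probe sets. Among the lower ones were 7 photosynthesis, 2 ndh and 15 genetic system genes. The same rule gave 28 lower photosynthesis genes at 8 d against 0 d, all that were analysed, beside 35.8% of all probe sets. At 8 d against 2 d it gave 58 of the 59, 28 photosynthesis and 16 genetic system genes, beside 29.9% of all probe sets. With the fold threshold, 5 genetic system genes fell between 2 d and 8 d, and 3 did after adding 64 to each signal, beside 14.7 and 11.5% of all probe sets. The median difference of the genetic system minus photosynthesis at 2 d was -0.47 and lay between -0.65 and -0.35 under the alternatives, including 1 chosen after seeing the data, scaling on a trimmed mean of the other probe sets. The photosynthesis median at 2 d was 0.096 with hybridisation controls, 0.011 after quantile normalization and -0.28 with median centring. The dimmest-probe filter left out 5 members. The replicate block left 177 of 177 gene values on the same side of the threshold, with counts of 1, 43 and 31. Counting each gene in each comparison under each alternative, 53 results lost their call, 130 gained one and 3873 did neither. Of the gains, 73 came from dropping the fold threshold. No called value changed sign, and 43 uncalled ones did, 42 of them at 2 d. The causes were not tested.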
